A study of Mus musculus with 12 samples.

Results

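The genes described here are 51 mouse genes of mitosis and of the passage from G2 into mitosis, taken by name from the 54752 genes of a count table of B16F10 cells. All 51 names matched an Ensembl gene of the table, and all 51 passed the filter on low counts, as did 18434 genes in all. B16F10 is a mouse melanoma cell line. RNA-seq was made of 4 groups of 3 libraries, 12 in all: cells labelled as double knockout of Ep300 and Crebbp, cells labelled as Ep300 knockout, cells labelled as Crebbp knockout, and control cells labelled wild type. Cells of every group were grown in the same serum-supplemented medium, and no further treatment is given. The labels do not say how the knockouts were made, whether a knockout is 1 clone or a pool, or whether replicates came from separately grown cells, so the p-values below measure only the spread between these libraries.

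Ep300 and Crebbp encode the paralogous lysine acetyltransferases p300 and CBP, which acetylate histones and other proteins at enhancers and promoters. Mitotic genes form a periodic programme: most are transcribed in G2 and mitosis and held low in G1, and many of their promoters carry the CHR element bound by the DREAM and MuvB complexes, with CCAAT boxes bound by NF-Y beside it. Their products build the cyclin B and CDK1 kinase that starts mitosis, the spindle and its checkpoint, the anaphase-promoting complex that ends mitosis, and the machinery that separates the daughter cells. In a bulk sample, fewer cells in G2 or mitosis and less of these RNAs in each such cell cannot be told apart.

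The targeted transcripts only partly followed the labels. Crebbp had 36.8, 36.3 and 30.3 CPM (counts scaled to library size, with TMM factors) in the libraries labelled Crebbp KO, against 69.5, 56.7 and 67.9 CPM in control, a log2 change of -0.91 ± 0.12 (SE; edgeR quasi-likelihood test with Benjamini-Hochberg adjustment, adjusted p = 0.000527). In the libraries labelled double KO it had 66.2, 68.7 and 57.1 CPM, within the control range. Ep300 had 146, 160 and 138 CPM in the libraries labelled double KO and 77.5, 82.9 and 94.7 CPM in those labelled Ep300 KO, against 98.5, 85.5 and 99.2 CPM in control; the change was 0.65 in double KO (adjusted p = 7.33e-05) and -0.15 in Ep300 KO (adjusted p = 0.376). RNA level therefore showed the label of the Crebbp KO group alone, and every direction below is that of libraries so labelled. Library totals ran from 64257251 to 85604243 counts. All 9 melanocyte markers were expressed, with a summed level of 9091 CPM in double KO, 19153 CPM in Ep300 KO, 23641 CPM in Crebbp KO and 25684 CPM in control. Fibroblast markers summed to between 10.4 and 24.4 CPM per library, and immune markers to between 2.28 and 7.34 CPM, with Adgre1, Tie1, Krt18 and Krt14 at 0 in every library.

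Of the 51 mitotic genes, 22 were called lower, 5 higher and 24 neither in the libraries labelled double KO against control at an adjusted p of 0.05, where 24.6% of all genes tested were called lower and 24.7% higher. As shares of the list these are 43.1% and 9.8%. The count of 5 was 1 without double KO replicate 2, 2 without control replicate 2 and 3 without control replicate 1 or 3. All 9 melanocyte markers were called lower in the same comparison, and whether this bears on the mitotic genes was not tested. The largest falls were in Mad2l1, Cdk1 and Cks2, and the largest rise was in Pttg1. The median log2 change of the 51 genes was -0.14, against -0.02 for all genes tested, and no gene of the list passed 1 on the log2 scale, its values lying between -0.71 and 0.67.

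The separation held library by library. In 24 of the 51 genes all 3 libraries labelled double KO lay below all 9 others, which was so for 16.4% of all genes tested, and 21 of these 24 were among the 22 genes called lower against control. Pttg1 alone of the list lay above all 9 others (18.8% of all genes tested did). The summed level of the 51 genes was 5590 ± 45.7 CPM in double KO, 6620 ± 164 CPM in Ep300 KO, 6727 ± 33.8 CPM in Crebbp KO and 6584 ± 179 CPM in control (SD, n = 3 each). On the first principal component of the list, which held 71.2% of its variance, the libraries labelled double KO lay between 1.41 and 1.90. The other 9 lay between -1.28 and 0.17. The first component of all genes tested, with 51.1% of their variance, had double KO between -67.7 and -64.4 and the others between -16.8 and 53.2. Separation of these libraries was therefore not particular to the list.

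**Figure D1:**
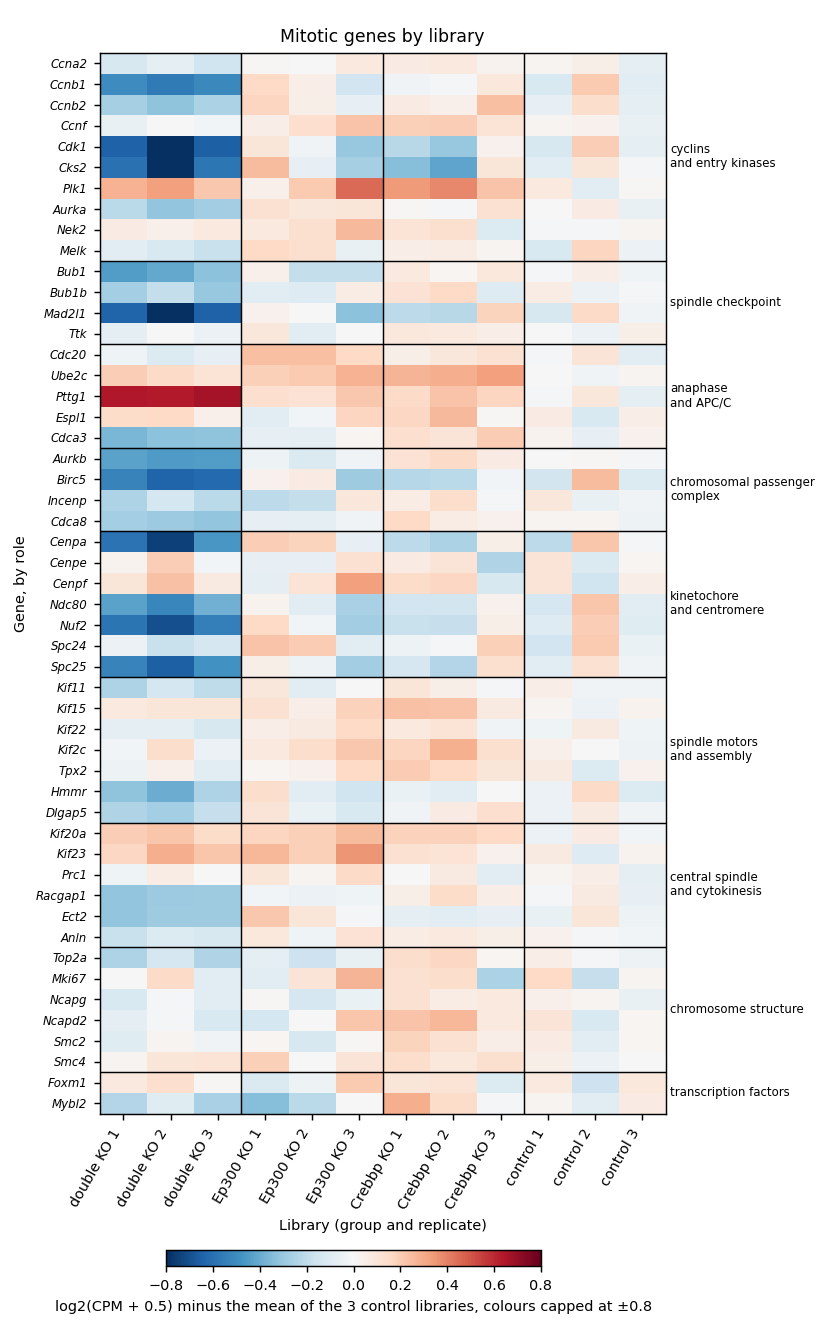
Colour map of log2(CPM + 0.5) minus the mean of the 3 control libraries for the 51 mitotic genes (rows, grouped by role) in 12 libraries (columns, by group and replicate), with colours capped at ±0.8. Blue rows dominate the double KO columns in the kinetochore, checkpoint and passenger complex groups, while Pttg1 is red there; control replicate 2 and Ep300 KO replicate 3 differ from their group mates in opposite directions for many genes.

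Promoters are shown for Cdk1, among the strongest falls in double KO, and for Ccnb1, its cyclin partner. Those of Plk1 and Ube2c, called higher in double KO, are also shown, although Ube2c had the smallest change of the genes called higher. The promoters of Mad2l1 and Cks2, also among the largest falls, are not shown. The sequences are from RefSeq (GRCm38.p6) and run 5′ to 3′ on the gene's strand toward the start, ending before the first exon annotated in GENCODE M21. Capitals mark TTTGAA (the core letters of the CHR element) and CCAAT, each on either strand. The Cdk1 stretch is chr10:69352939-69353162 on the minus strand, that of Ccnb1 chr13:100786571-100786736 on the minus strand, that of Ube2c chr2:164769679-164769897 on the plus strand and that of Plk1 chr7:122159185-122159434 on the plus strand.
Cdk1: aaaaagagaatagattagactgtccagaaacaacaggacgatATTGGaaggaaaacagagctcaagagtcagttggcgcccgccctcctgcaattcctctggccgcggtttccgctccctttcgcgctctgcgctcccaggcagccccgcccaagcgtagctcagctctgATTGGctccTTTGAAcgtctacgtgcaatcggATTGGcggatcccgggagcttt
Ccnb1: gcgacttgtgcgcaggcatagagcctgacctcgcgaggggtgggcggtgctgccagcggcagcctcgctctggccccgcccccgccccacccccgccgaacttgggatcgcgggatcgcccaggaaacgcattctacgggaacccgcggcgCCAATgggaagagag
Ube2c: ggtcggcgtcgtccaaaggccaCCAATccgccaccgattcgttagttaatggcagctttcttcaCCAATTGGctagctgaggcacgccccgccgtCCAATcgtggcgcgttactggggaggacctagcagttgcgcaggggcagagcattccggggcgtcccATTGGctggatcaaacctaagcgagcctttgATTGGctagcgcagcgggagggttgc
Plk1: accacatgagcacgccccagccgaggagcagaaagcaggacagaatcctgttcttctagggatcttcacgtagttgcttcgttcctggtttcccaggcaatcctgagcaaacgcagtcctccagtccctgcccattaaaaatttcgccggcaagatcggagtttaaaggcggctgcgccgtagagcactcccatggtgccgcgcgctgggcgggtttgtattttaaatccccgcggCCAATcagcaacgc

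Only 4 genes called higher in double KO were in the RefSeq table, too few to tell whether the motif letters sorted the genes by direction. In the 250 bases before the annotated start, TTTGAA on either strand was in 17 of the 42 listed genes in the RefSeq table (40.5%), against 18.3% of all genes there. It was in 5 of the 20 genes called lower in double KO (25%), 1 of the 4 called higher (25%) and 11 of the 18 not called (61.1%). CCAAT on either strand was in 76.2% of the listed genes and 37.5% of all genes. It was in 16 of 20 genes called lower (80%), 3 of 4 called higher (75%) and 13 of 18 not called (72.2%). Cdk1 held TTTGAA beginning 71 and 15 bases before its start and Ube2c 29 bases before, the last 2 within bases not printed, while Ccnb1 and Plk1 held CCAAT only. A match is a description of letters and not of binding. In Ube2c a CCAAT on the plus strand overlaps one on the minus strand. Aurkb is not in the table, and the Pttg1 stretch overlaps annotated exons and is not printed.

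Among the cyclins and kinases of mitotic entry, 5 of 10 genes (50%) were lower in double KO than in control and 1 (10%) was higher. Of all genes tested, 24.6% were lower and 24.7% higher. The role groups below are small, and their counts are descriptions beside these shares. Cdk1, the kinase that drives entry into mitosis (chr10:69335146-69352938, mm10), had 257, 230 and 256 CPM in the libraries labelled double KO, 430, 395 and 327 CPM in Ep300 KO, 345, 327 and 413 CPM in Crebbp KO, and 369, 463 and 384 CPM in control. Its highest double KO library lay below the lowest of the other 9. The log2 change against control was -0.71 ± 0.12, or 0.612-fold (adjusted p = 0.000149). Ccnb1, which encodes cyclin B1, the activating partner of CDK1 (chr13:100778650-100786570), had 148, 142 and 147 CPM in double KO, 235, 218 and 189 CPM in Ep300 KO, 206, 209 and 223 CPM in Crebbp KO, and 193, 243 and 198 CPM in control. Again no double KO library reached the other groups, and the change was -0.54 ± 0.095 (adjusted p = 0.000272). Ccnb2, encoding cyclin B2, had 86.9, 83.6 and 87.6 CPM in double KO, 118, 108 and 100 CPM in Ep300 KO, 109, 108 and 124 CPM in Crebbp KO, and 100, 116 and 99.0 CPM in control. The groups did not overlap here either, but the change was smaller at -0.29 ± 0.082 (adjusted p = 0.00898), and it was -0.09 with length and GC offsets (adjusted p = 0.101). Pseudogenes of both cyclins are annotated, Ccnb1-ps and Ccnb2-ps, with 3582 and 3808 counts over the 12 libraries, so some reads may have been divided between copies.

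Aurka, the kinase of centrosome maturation and spindle poles, had 78.3, 73.2 and 75.1 CPM in double KO, 99.2, 96.8 and 97.6 CPM in Ep300 KO, 91.8, 90.0 and 99.0 CPM in Crebbp KO, and 90.7, 95.2 and 87.3 CPM in control (log2 change against control -0.27 ± 0.061, adjusted p = 0.00191). Cks2, a small CDK-binding subunit, averaged 59.3 ± 6.6 CPM in double KO and 95.1 ± 6.2 CPM in control (SD, n = 3 each; change -0.68, adjusted p = 0.000931). With length and GC offsets the Cks2 change was -0.33, still called. Plk1, the Polo kinase that acts from entry to cytokinesis (chr7:122159439-122169873), went the other way, with 67.3, 69.6 and 64.5 CPM in double KO, 57.0, 64.3 and 76.1 CPM in Ep300 KO, 70.4, 72.4 and 64.9 CPM in Crebbp KO, and 58.6, 52.1 and 55.7 CPM in control. All 3 double KO and all 3 Crebbp KO libraries exceeded control, while Ep300 KO overlapped it. The change was 0.28 ± 0.090 in double KO (adjusted p = 0.0196), but without control replicate 2 or double KO replicate 2 the adjusted p was 0.0693 and 0.0691. Ccnf, encoding cyclin F, a subunit of an SCF ubiquitin ligase, had 32.5, 34.0 and 33.4 CPM in double KO, 35.1, 37.2 and 39.7 CPM in Ep300 KO, 38.8, 38.9 and 36.6 CPM in Crebbp KO, and 34.4, 34.7 and 32.5 CPM in control. Double KO and control overlapped for Ccnf, and both single-knockout groups lay above control. Changes of Ccna2, Nek2 and Melk lay between -0.14 and 0.06 and were not called.

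**Figure D2:**
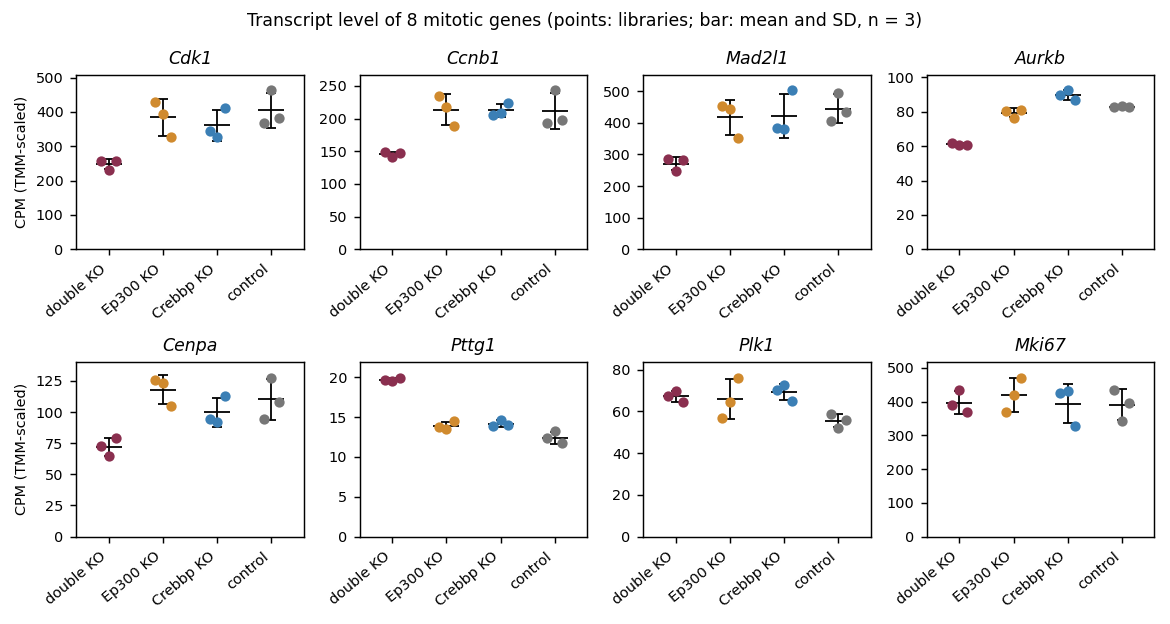
CPM (TMM-scaled, linear axis from 0) of 8 mitotic genes, with a point per library and the mean and SD of 3 libraries per group. The double KO points lie below all others for Cdk1, Ccnb1, Mad2l1, Aurkb and Cenpa and above all others for Pttg1, while for Mki67 all groups overlap.

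In the spindle checkpoint, which holds anaphase until every chromosome is attached, 3 of 4 genes were lower in double KO (24.6% of all genes tested were). Mad2l1, encoding the inhibitor MAD2 (chr6:66535390-66547220), had 284, 247 and 283 CPM in double KO, 454, 443 and 353 CPM in Ep300 KO, 384, 380 and 502 CPM in Crebbp KO, and 406, 494 and 435 CPM in control. This was the largest fall of the list, with a log2 change of -0.71 ± 0.12 (0.609-fold, adjusted p = 0.000219). Bub1, a checkpoint kinase at kinetochores, had 116, 119 and 126 CPM in double KO, 163, 139 and 139 CPM in Ep300 KO, 168, 160 and 168 CPM in Crebbp KO, and 157, 164 and 155 CPM in control, and its change was -0.40 ± 0.072 (adjusted p = 0.000344). For both genes the double KO libraries were below the other 9. Bub1b, encoding BUBR1 of the same checkpoint complex, changed by -0.26 (adjusted p = 0.0109), and Ttk, the upstream kinase MPS1, by -0.04, which was not called.

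Of the 5 genes of anaphase onset, 1 (20%) was lower and 2 (40%) higher in double KO, where 24.6% and 24.7% of all genes tested were. Pttg1 encodes securin, the inhibitor of separase that is destroyed at anaphase onset (chr11:43420250-43426251). It had 19.6, 19.6 and 20 CPM in double KO, 13.7, 13.5 and 14.5 CPM in Ep300 KO, 13.9, 14.7 and 14.1 CPM in Crebbp KO, and 12.4, 13.2 and 11.7 CPM in control. The libraries labelled double KO were above all others, and those of both single knockouts were above control. The change was 0.67 ± 0.069, or 1.59-fold (adjusted p = 1.39e-06), the smallest adjusted p of the list. Ube2c, the ubiquitin-conjugating enzyme of the anaphase-promoting complex, had 86.8, 84.0 and 81.7 CPM in double KO, 86.5, 87.7 and 92.0 CPM in Ep300 KO, 91.3, 92.5 and 95.3 CPM in Crebbp KO, and 75.8, 74.2 and 76.9 CPM in control. Every knockout library exceeded every control library, but the change in double KO was 0.15 ± 0.056 (adjusted p = 0.0339) and was lost on leaving out any of 7 libraries singly: control replicates 1, 2 and 3 (adjusted p 0.0735, 0.0839 and 0.0651), Ep300 KO replicate 2 (0.0503), Crebbp KO replicate 1 (0.0531) and double KO replicates 1 and 2 (0.130 and 0.0810). With length and GC offsets it was 0.09 (adjusted p = 0.110). Cdca3, a trigger of mitotic entry and a target of that complex, had 49.4, 50.7 and 50.8 CPM in double KO, 60.7, 60.4 and 64.4 CPM in Ep300 KO, 70.0, 68.6 and 73.4 CPM in Crebbp KO, and 65.0, 60.9 and 65.4 CPM in control. It was below all others in double KO, with a change of -0.34 ± 0.059 (adjusted p = 0.000202).

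Cdc20, the activator of the anaphase-promoting complex that the checkpoint restrains, had 53.2, 50.4 and 52.0 CPM in double KO, 64.4, 64.5 and 60.9 CPM in Ep300 KO, 56.3, 58.0 and 59.2 CPM in Crebbp KO, and 54.1, 58.4 and 51.1 CPM in control. Double KO overlapped control (-0.07, adjusted p = 0.364). Elovl1 overlaps Cdc20 on the other strand and had 55.3% as many counts, and whether counting used strand is not given in the sources used here, so its reads may have been counted with it or lost. The same limit applies to Ncapg, Ccna2, Cdca8 and Prc1. Coding genes that overlap them on the other strand had 50.5%, 42.3%, 17.85% and 8.52% as many counts. Espl1, encoding separase, changed by 0.11 and was not called (adjusted p = 0.298). With length and GC offsets its change was -0.15 and was called lower, so its direction depended on the processing.

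The chromosomal passenger complex, which corrects attachments and then moves to the central spindle, was lower in 3 of its 4 genes (24.6% of all genes tested were). Its kinase Aurkb (chr11:69045647-69051664) had 61.7, 60.6 and 60.7 CPM in double KO, 80.6, 76.5 and 81.3 CPM in Ep300 KO, 89.9, 92.4 and 87.0 CPM in Crebbp KO, and 82.8, 83.6 and 82.6 CPM in control. Replicates were close together and no groups overlapped, with double KO lowest, Ep300 KO just below control and Crebbp KO above it. The change in double KO was -0.44 ± 0.055 (0.735-fold, adjusted p = 9.31e-06). Birc5, encoding survivin, had 138, 128 and 130 CPM in double KO, 205, 210 and 164 CPM in Ep300 KO, 171, 173 and 197 CPM in Crebbp KO, and 181, 239 and 186 CPM in control, a change of -0.61 ± 0.11 (adjusted p = 0.000346). Cdca8, encoding borealin, had 31.0, 30.6 and 30.1 CPM in double KO, 35.8, 35.6 and 36.8 CPM in Ep300 KO, 42.0, 39.0 and 38.4 CPM in Crebbp KO, and 38.1, 38.0 and 36.4 CPM in control, a change of -0.30 ± 0.059 (adjusted p = 0.000680). Both had their 3 lowest libraries in double KO. The scaffold Incenp changed by -0.20 with an adjusted p of 0.0517, above the threshold.

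At the kinetochore and centromere 4 of 7 genes were lower (57.1%, beside 24.6% of all genes tested). Among them were 3 of the 4 subunits of the NDC80 complex, which binds microtubule ends. Nuf2 had 103, 94.4 and 105 CPM in double KO, 172, 152 and 127 CPM in Ep300 KO, 136, 136 and 159 CPM in Crebbp KO, and 144, 177 and 144 CPM in control (-0.62 ± 0.11, adjusted p = 0.000293). Spc25 had 81.0, 74.4 and 83.8 CPM in double KO, 121, 114 and 96.6 CPM in Ep300 KO, 107, 99.9 and 128 CPM in Crebbp KO, and 110, 128 and 115 CPM in control (-0.56 ± 0.10, adjusted p = 0.000333). Both lay below the other 9 libraries, as did Ndc80 itself (77.0 ± 3.7 CPM in double KO and 105 ± 15 CPM in control, SD, n = 3 each; -0.45, adjusted p = 0.00135). The remaining subunit, Spc24, changed by -0.13 and was not called. Cenpa, the histone H3 variant that marks centromeres, had 72.5, 64.9 and 79.1 CPM in double KO, 125, 124 and 105 CPM in Ep300 KO, 94.6, 91.8 and 113 CPM in Crebbp KO, and 94.7, 128 and 108 CPM in control. Its double KO libraries were the 3 lowest, and the change was -0.61 ± 0.11 (adjusted p = 0.000453). The large outer proteins Cenpe, a kinesin, and Cenpf changed by 0.07 and 0.13 and were not called.

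Of the 7 spindle motors and assembly factors, 3 were lower (42.9%, beside 24.6% of all genes tested). Kif11, the kinesin that pushes spindle poles apart, changed by -0.20 on the log2 scale. Hmmr, a spindle assembly factor, changed by -0.33, and Dlgap5, which stabilises kinetochore fibres, by -0.23. The Kif11 call was lost without control replicate 1 (adjusted p = 0.0801), double KO replicate 1 (0.0945) or double KO replicate 3 (0.0646), and that of Dlgap5 without double KO replicate 2 (0.0565). Kif15, Kif22, Kif2c and Tpx2 changed by between -0.09 and 0.09.

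In the central spindle and cytokinesis group of 6, Racgap1 and Ect2 were lower and Kif20a and Kif23 higher. This was 33.3% each way, beside 24.6% lower and 24.7% higher of all genes tested. Racgap1 and Kif23 encode the partners of centralspindlin, and Ect2 is the RhoA exchange factor that centralspindlin recruits. Racgap1 had 146, 148 and 149 CPM in double KO, 179, 176 and 178 CPM in Ep300 KO, 188, 202 and 189 CPM in Crebbp KO, and 181, 191 and 174 CPM in control, a change of -0.30 ± 0.062 (adjusted p = 0.000893), with double KO below all others. Kif23 averaged 73.4 ± 3.3 CPM in double KO and 62.8 ± 3.9 CPM in control (SD, n = 3 each), a change of 0.23 (adjusted p = 0.0119), so the 2 partners were called in opposite directions. The Kif23 call was lost without control replicate 2 (adjusted p = 0.0511) or double KO replicate 2 (0.0608). Kif20a, the kinesin MKLP2 that carries the passenger complex, changed by 0.19, was lost without control replicate 1 (adjusted p = 0.0522), control replicate 3 (0.0514) or double KO replicate 2 (0.0534), and overlaps Cdc23 on the other strand, which had 73.8% as many counts. Prc1, a bundler of central-spindle microtubules, and Anln, an actin-binding protein of the contractile ring, changed by 0.01 and -0.14 and were not called.

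In the chromosome structure group 1 of 6 genes was lower in double KO than in control (16.7%, below the 24.6% of all genes tested). Of the 2 transcription factors, 0 were called. Top2a, the topoisomerase that untangles chromosomes, was the gene called, at -0.21 (adjusted p = 0.0289), a call lost without control replicate 1 (adjusted p = 0.0960), double KO replicate 1 (0.110) or double KO replicate 3 (0.101). Mki67, the proliferation marker that coats mitotic chromosomes (chr7:135689784-135716361), had 389, 434 and 368 CPM in double KO, 368, 418 and 471 CPM in Ep300 KO, 424, 430 and 327 CPM in Crebbp KO, and 435, 343 and 396 CPM in control. The 4 groups overlapped, and the change in double KO was 0.02 ± 0.12 (adjusted p = 0.909). The condensin genes Smc2, Smc4, Ncapg and Ncapd2 changed by between -0.08 and 0.08.

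Foxm1, a factor that activates G2 and mitosis genes, had 98.6, 103 and 94.1 CPM in double KO, 86.5, 91.1 and 108 CPM in Ep300 KO, 99.9, 101 and 86.7 CPM in Crebbp KO, and 98.9, 83.4 and 99.3 CPM in control, with overlap of every group and a change of 0.07 ± 0.094 in double KO (adjusted p = 0.580). Mybl2, the MuvB partner B-Myb, had 16.1, 17.7 and 15.7 CPM in double KO, 14.9, 16.3 and 19 CPM in Ep300 KO, 23.3, 21.1 and 18.9 CPM in Crebbp KO, and 19.2, 17.9 and 19.9 CPM in control. Double KO lay just below control, and the change of -0.20 ± 0.098 was not called (adjusted p = 0.103).

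**Figure D3:**
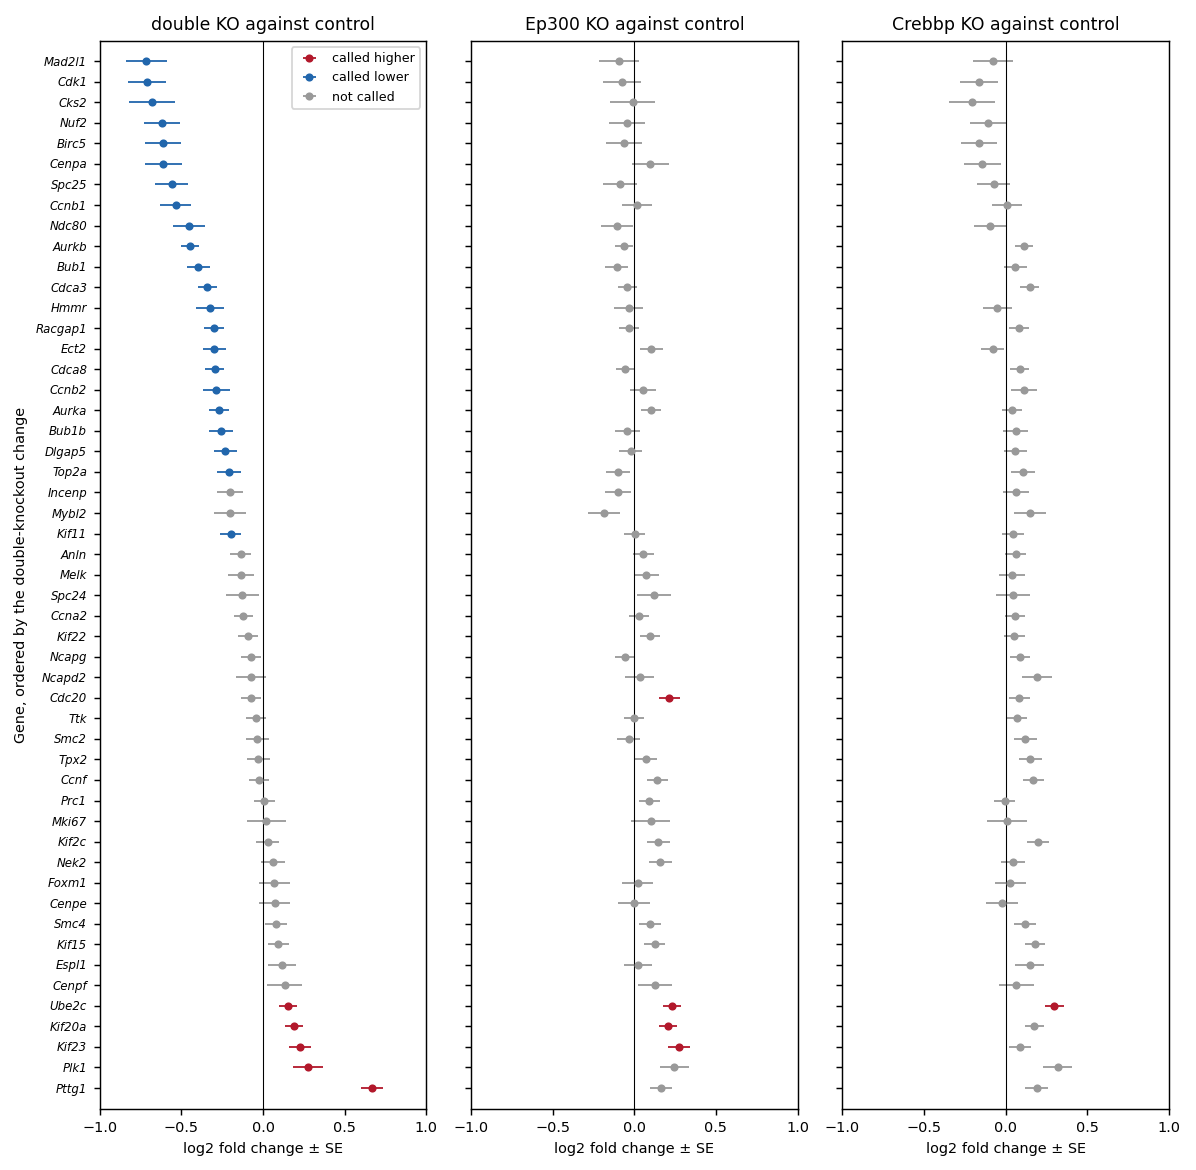
Log2 fold change ± SE of the 51 mitotic genes in each knockout group against control (edgeR, 3 libraries a group), ordered by the double KO change; red and blue mark genes called higher and lower. Double KO has 22 blue and 5 red genes, Ep300 KO 4 red genes and Crebbp KO 1 red gene.

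Calls in the single knockouts were few, at a share of higher calls close to that of all genes. In Ep300 KO against control 4 of 51 genes, or 7.84%, were called higher (7.27% of all genes tested were) and 0 lower (8.83% were). They were Kif23 (0.27, adjusted p = 0.0114), Ube2c (0.23, 0.00991), Cdc20 (0.21, 0.0285) and Kif20a (0.21, 0.0203), genes of anaphase and cytokinesis. In Crebbp KO against control Ube2c alone was called higher (0.30, adjusted p = 0.0104; 1.52% of all genes tested were) and 0 were lower (1.61% were). At an unadjusted p under 0.05, 8 genes were higher and 0 lower in Ep300 KO, and 9 higher and 0 lower in Crebbp KO. Of the 18434 genes tested, 5005 and 3263 had such a p in either direction. DESeq2 and limma-voom each called 0 lower in both comparisons. Of all genes they tested, they called 10% and 9.02% lower in Ep300 KO, and 3.7% and 1.54% in Crebbp KO. The count of 4 was 2 without control replicate 1, control replicate 3 or Ep300 KO replicate 2, and that of 1 was 2 without Ep300 KO replicate 1 or 3. The median change of the list was 0.02 in Ep300 KO and 0.06 in Crebbp KO.

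Each of these 5 calls was lost when only the groups compared were fitted, with adjusted p from 0.0547 to 0.114 and log2 changes close to those above (0.21 for Cdc20, 0.23 for Ube2c, 0.20 for Kif20a and 0.27 for Kif23 in Ep300 KO, and 0.30 for Ube2c in Crebbp KO). The Cdc20 call in Ep300 KO was also lost without control replicate 1 (adjusted p = 0.0894), control replicate 3 (0.164), Ep300 KO replicate 1 (0.0794) or Ep300 KO replicate 2 (0.115). That of Kif20a was lost without control replicate 1 (0.0919), control replicate 3 (0.0900), Ep300 KO replicate 2 (0.0574) or Ep300 KO replicate 3 (0.0607). Plk1, which was called higher in double KO, changed by 0.25 in Ep300 KO and 0.32 in Crebbp KO without being called (adjusted p = 0.0833 and 0.0714).

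Set directly against the single knockouts, the libraries labelled double KO were lower in 25 genes and higher in 1 than Ep300 KO (16.6% and 18% of all genes tested), and lower in 29 genes and higher in 1 than Crebbp KO (21.8% and 21.4%). These comparisons share the double KO libraries with the comparison against control. The gene called higher was Pttg1 in both, at 0.50 ± 0.068 against Ep300 KO (adjusted p = 6.58e-05) and 0.47 ± 0.068 against Crebbp KO (adjusted p = 5.26e-05). Cdk1 changed by -0.63 and -0.55, Ccnb1 by -0.55 and -0.54, Mad2l1 by -0.62 and -0.64, and Aurkb by -0.38 and -0.56, each called in both. Plk1 did not separate double KO from either single knockout (0.03 and -0.04, adjusted p = 0.834 and 0.730). In the chromosome structure group Top2a (-0.32, adjusted p = 0.00281), Ncapd2 (-0.26, 0.0294) and Ncapg (-0.16, 0.0468) were lower than in Crebbp KO, as was the transcription factor Mybl2 (-0.35, 0.00921). The Top2a call was kept under all 21 alternatives; that of Mybl2 was lost without Crebbp KO replicate 1 (0.0513), and that of Ncapd2 without Crebbp KO replicate 1 (0.0793) or 2 (0.0969) or double KO replicate 1 (0.0771) or 3 (0.0976). That of Ncapg was lost on leaving out any of 9 libraries, with adjusted p of up to 0.166 without double KO replicate 1. With length and GC offsets the Cks2 change against Crebbp KO was -0.06 (adjusted p = 0.580), against -0.47 without them, and that call was also lost without Crebbp KO replicate 3 (0.0823) or double KO replicate 2 (0.0672). Cdc20 was called lower against Ep300 KO (-0.29, adjusted p = 0.00288) and not against Crebbp KO (-0.16, adjusted p = 0.0545).

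Between the single knockouts, 3 genes were called lower in Ep300 KO than in Crebbp KO and 0 higher, where 7.37% and 6.26% of all genes tested were. They were Mybl2 (-0.33, adjusted p = 0.0346), Cdca3 (-0.19, adjusted p = 0.0405) and Aurkb (-0.18, adjusted p = 0.0461). At an unadjusted p under 0.05, 8 genes were lower and 2 higher, and 4700 of the 18434 genes tested had such a p in either direction. DESeq2 called 4 lower and 1 higher (8.92% and 7.65% of all genes it tested), and limma-voom 3 and 0 (7.41% and 6.06%). For Aurkb and Cdca3 the 3 Ep300 KO libraries lay below the 3 Crebbp KO libraries, and for Mybl2 the groups overlapped. The count of 3 fell to 0 without Ep300 KO replicate 2, Crebbp KO replicate 1, Crebbp KO replicate 2 or double KO replicate 1, to 1 without control replicate 1, control replicate 3, Ep300 KO replicate 1, double KO replicate 2 or double KO replicate 3, and was 5 without Ep300 KO replicate 3.

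The design also allows asking whether the Crebbp KO label went with the same change when Ep300 was labelled knockout as when it was not, by setting double KO against Ep300 KO beside Crebbp KO against control, which share no library. For 12 genes the change was called lower on the Ep300 KO background (4.96% of all genes tested) and for 0 higher (5.33%). At an unadjusted p under 0.05, 32 were lower and 1 higher, and 4755 of the 18434 genes tested had such a p in either direction. DESeq2 called 20 lower and 1 higher (8.75% and 8.6% of all genes it tested), and limma-voom 13 and 0 (4.99% and 5.41%). The median difference over the 51 genes was -0.26, and 48 of 51 differences were negative. Of the 12, Ube2c alone was called on the control background. Cenpa changed by -0.71 on the Ep300 KO background and by -0.14 on the control background, a difference of -0.57 ± 0.16 (adjusted p = 0.0387), which was lost on leaving out any of 7 libraries singly: control replicates 1 and 3 (adjusted p 0.0973 and 0.0987), Ep300 KO replicates 1 and 2 (0.0853 and 0.109), Crebbp KO replicate 3 (0.0915) and double KO replicates 1 and 2 (0.0783 and 0.106). Ccnb1 changed by -0.55 and 0.01, a difference of -0.56 ± 0.13 (adjusted p = 0.0158), lost without control replicate 3 (0.0593) or Ep300 KO replicate 2 (0.0515). Aurkb, which corrects attachments as the passenger complex kinase, changed by -0.38 and 0.11, a difference of -0.50 ± 0.078 (adjusted p = 0.000887).

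**Figure D4:**
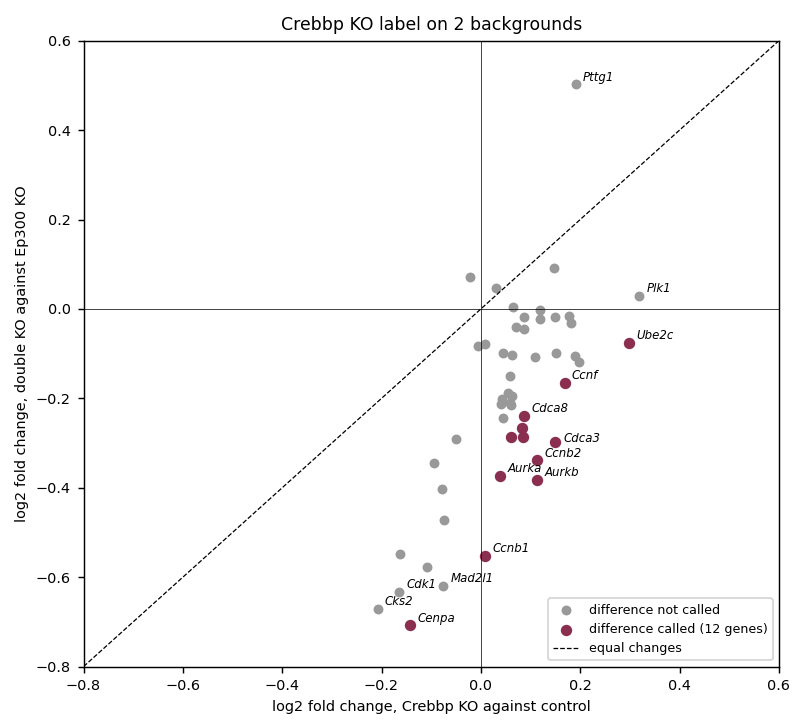
Log2 fold change of each of the 51 mitotic genes with the Crebbp KO label on the Ep300 KO background (y axis, double KO against Ep300 KO) and on the control background (x axis, Crebbp KO against control). The dashed line marks equal changes; 48 genes lie below it, and the 12 genes whose difference was called are in colour (Bub1, Cdc20 and Racgap1 are the unnamed coloured points).

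The other 9 of these genes were Ccnb2 (-0.45, adjusted p = 0.0220), Cdca3 (-0.45, 0.00317), Aurka (-0.41, 0.00718), Ube2c (-0.37, 0.00778), Cdc20 (-0.37, 0.0156), Racgap1 (-0.35, 0.0197), Bub1 (-0.35, 0.0429), Ccnf (-0.33, 0.0290) and Cdca8 (-0.33, 0.0212), each value being the difference on the log2 scale. Ube2c, Cdc20 and Ccnf were not among the genes lower in double KO than in control: Ube2c averaged 84.2 CPM in double KO, 88.7 CPM in Ep300 KO, 93.0 CPM in Crebbp KO and 75.6 CPM in control, and was called higher than control in all 3 knockout groups. Cdc20 and Ccnf overlapped control in double KO, and Cdc20 was called higher in Ep300 KO. Cdk1 and Mad2l1, the largest falls against control, had differences of -0.47 and -0.54 that were not called (adjusted p = 0.0863 and 0.0601). The calls of Aurka, Ube2c, Cdca3 and Aurkb were kept under all 20 alternatives tried, 1 of which was added after seeing the data. Without control replicate 3 the calls of Cdc20 (adjusted p = 0.0606), Ccnb2 (0.0796), Racgap1 (0.0758), Bub1 (0.120), Ccnf (0.0914) and Cdca8 (0.0723) were also lost, and each was lost without 2 or more further libraries. The count of 12 was 4 without control replicate 3, 5 without Ep300 KO replicate 2, 6 without double KO replicate 1 or 2, 7 without control replicate 1, 19 without Ep300 KO replicate 3 and 21 without control replicate 2.

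Other cell-cycle lists were counted in double KO against control, where 24.6% of all genes tested were called lower and 24.7% higher. Among 31 other checkpoint and kinetochore genes 17 (54.8%) were called lower and 3 higher; Zw10, which brings dynein to kinetochores, changed by -0.61 (adjusted p = 8.61e-07), and its partner Zwint by 0.51 (adjusted p = 1.74e-05). Among 27 other spindle and cytokinesis genes 12 (44.4%) were lower and 3 higher, with Pbk, a mitotic kinase, at -0.98 (adjusted p = 2.55e-06) and Pimreg at -0.90 (adjusted p = 1.07e-07). Of 20 S phase genes 10 (50%) were lower and 1 higher, with the replication genes Gins1 at -0.95 (adjusted p = 2.46e-06) and Rfc4 at -0.72 (adjusted p = 1.19e-05).

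In the remaining lists the shares lower and higher differed less. Of 12 other regulators of mitotic entry 5 were lower and 5 higher (41.7% each), with Cdc25b, a phosphatase that activates CDK1, at -0.85 (adjusted p = 6.24e-08) and Mastl, the Greatwall kinase, at 0.36 (adjusted p = 0.000161). Of 17 subunits and regulators of the anaphase-promoting complex 4 were lower and 3 higher (23.5% and 17.6%, near or below the shares of all genes), with the RING subunit Anapc11 at -0.60 (adjusted p = 0.000145) and the inhibitor Fbxo5 at -0.48 (adjusted p = 6.66e-05). Of 14 other condensin and cohesin genes 2 were lower and 3 higher (14.3% and 21.4%, both below the shares of all genes), with Cdca5, encoding sororin, at -0.51 (adjusted p = 0.000183) and the cohesin release factor Wapl at 0.40 (adjusted p = 0.000743). Of 13 DREAM and MuvB components 6 were lower and 4 higher (46.2% and 30.8%), with E2f4 at 0.60 (adjusted p = 3.12e-06) and Tfdp2 at 0.51 (adjusted p = 4.17e-06).

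**Figure D5:**
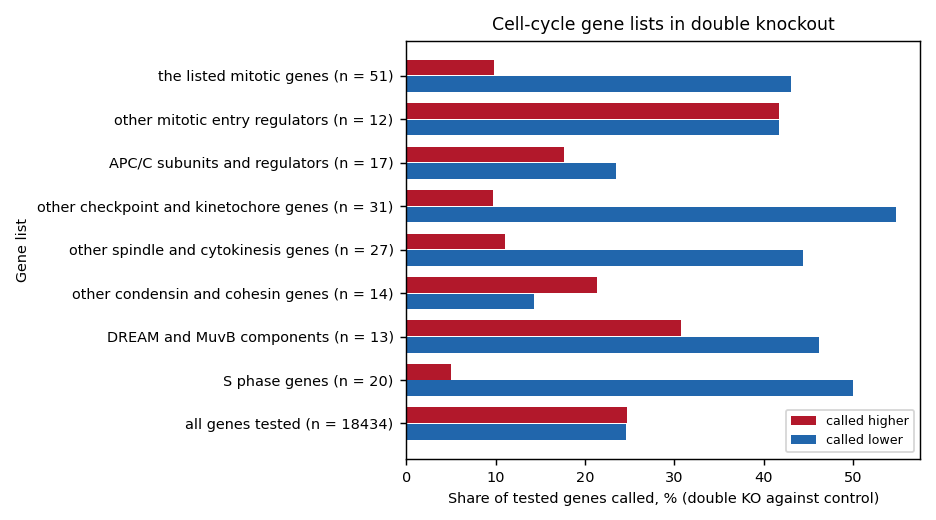
Share of the tested genes of each list called higher (red) or lower (blue) in double KO against control, in percent, with the number of genes in each list and all 18434 genes tested at the bottom. Lower calls make up 43.1% of the listed mitotic genes and 54.8% of the other checkpoint and kinetochore genes, against 24.6% of all genes.

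Gene length and library differences moved with some of these values. Across the 51 genes the rank correlation of the double KO change against control with exon length was 0.17 and with GC content 0.23, beside 0.17 and 0.11 across all genes tested. The correlation with control CPM was -0.48. Control CPM is also the reference of that change, so the 2 are not independent, and its value across all genes was not computed. With exon length it was 0.28 for double KO against Ep300 KO (0.29 across all genes), 0.23 against Crebbp KO (0.21) and 0.41 for the difference between backgrounds (0.29). These are descriptions across genes, which are not independent replicates, and the part of length in the difference between backgrounds was not tested beyond the fit with offsets. With length and GC offsets for each library, 27 of 51 genes were lower and 4 higher (26.1% and 26.2% of all genes tested). Of the 22 lower calls, 21 were shared. Per kilobase of annotated exons, control levels ranged from 4.10 FPKM for Mybl2 to 137 FPKM for Cks2, with Cdk1 at 82.1 and Pttg1 at 6.22. Within groups, Crebbp KO replicate 3 and control replicate 2 each held their group's highest value of Cdk1, Ccnb1, Mad2l1 and Birc5 and its lowest of Mki67, and Ep300 KO replicate 3 held the lowest Ep300 KO value of the same 4 genes and the highest of Mki67. Double KO replicate 2 likewise held the lowest double KO value of the same 4 genes and the highest of Mki67. The part of these library differences in the single-knockout and double KO results was not tested.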

How the data were processed

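RNA was sequenced from 12 B16F10 libraries, 3 in each of 4 groups taken from the sample titles. The authors deposited whole-number counts per Ensembl gene; per the submitters' processing notes, bcl2fastq, HISAT2 and HTSeq were used with build mm10, with versions and strand setting not given in the sources used here. A stranded mRNA kit was used, per the labels' protocols. The 54752 genes were named from GENCODE M21 (GRCm38); 29 without annotation held at most 0.00378% of a library. Genes were filtered with filterByExpr, scaled by TMM, and fitted over all 12 libraries by group with edgeR 4.0.16 (robust quasi-likelihood F test, R 4.3.3), with Benjamini-Hochberg adjustment over 18434 genes and a threshold of 0.05. The SE is the log2 change over the root of F. The biological coefficient of variation was 9.46%. Alternatives were RLE scaling, other filters, DESeq2 1.42.0, limma-voom 3.58.1, a replicate block, length and GC offsets (mgcv 1.9.3), fits of the compared groups alone, and each library left out. No 2 libraries of the same group agreed within counting noise. The scripts were checked on simulated counts.

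The 51 genes, their roles and the other lists were chosen with earlier results of these data known. Values in every library are given for the 12 genes with the smallest adjusted p against control, for Ccnb1, Cdk1, Plk1, Mki67, Foxm1 and Mybl2, and for the genes called in the comparison of backgrounds; of other lists, at most 2 called genes per comparison are named. The lowest count of a listed gene in a library was 757.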

Additional observations from a re-analysis of the deposited data

Results flagged for a closer look

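In 12 genes the change with the Crebbp KO label differed between the Ep300 KO background and the control background by the test of the difference itself (edgeR, Benjamini-Hochberg adjustment). The differences, in log2 units and as the change on the Ep300 KO background minus that on the control background, were -0.57 for Cenpa, -0.56 for Ccnb1, -0.50 for Aurkb, -0.45 for Ccnb2, -0.45 for Cdca3, -0.41 for Aurka, -0.37 for Ube2c, -0.37 for Cdc20, -0.35 for Racgap1, -0.35 for Bub1, -0.33 for Ccnf and -0.33 for Cdca8. With 3 libraries a group, no library was tested for standing apart from its group.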

How the results depend on the processing

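Leaving out 1 library at a time gave 2 to 4 genes higher and a median of 0.0194 to 0.0473 in Ep300 KO against control, 1 to 2 higher and 0.0479 to 0.0903 in Crebbp KO against control, 1 to 5 higher in double KO against control, and a median of -0.19 to -0.15 in double KO against Ep300 KO. It gave 0 to 1 higher, 0 to 5 lower and a median of -0.0505 to -0.0155 in Ep300 KO against Crebbp KO. Between backgrounds it gave 0 to 1 higher and 4 to 21 lower. Over all genes tested, the same fits called 1065 to 1465 higher in Ep300 KO, 94 to 386 in Crebbp KO and 3881 to 4733 in double KO. They called 866 to 1311 higher and 912 to 1488 lower between single knockouts, and 602 to 1363 and 475 to 1498 between backgrounds. Without a filter on low counts, higher counts were 2 in Ep300 KO (4.83% of all genes tested), 2 in Crebbp KO (1.92%) and 3 in double KO (14.1%). Ep300 KO against Crebbp KO then had 1 higher (4.36%) and 1 lower (4.05%). Fitting only the groups compared gave 0 higher in Ep300 KO (5.45% of all genes tested) and in Crebbp KO (0.731%). It gave 0 lower between them (5.06%). DESeq2 gave 3 higher in Crebbp KO (4.33% of all genes it tested) and 1 higher in Ep300 KO against Crebbp KO (7.65%). Between backgrounds it gave 1 higher (8.6%) and 20 lower (8.75%), and a minimum of 1 CPM gave 1 higher (8.78%). With length and GC offsets 1 gene was lower in Ep300 KO (12.3% of all genes tested) and 4 higher in Crebbp KO (3.33%). In Ep300 KO against Crebbp KO 2 were higher (9.43%) and 7 lower (10.7%). Between backgrounds 1 was higher (7.55%) and 32 lower (7.02%). Medians with these offsets were -0.20 in double KO against control, -0.22 against Ep300 KO, -0.23 against Crebbp KO and -0.30 between backgrounds. Espl1 turned to -0.15 in double KO against control and -0.12 against Ep300 KO, and was called lower in both. Same-numbered libraries showed no common deviation (18 pairs, r from -0.17 to 0.107, 1 over 0.1, beside 7 of 36 differently numbered pairs). The labels do not say whether the numbers pair samples, and these correlations cannot settle it. With the replicate block 3 and 0 genes were higher and lower in Ep300 KO (6.2% and 7.48% of all genes tested). In Crebbp KO 1 and 0 were (0.819% and 0.922%). Double KO had 4 and 21 against control (23.1% and 22.9%), 1 and 19 against Ep300 KO (15.6% and 14.1%) and 1 and 27 against Crebbp KO (19.7% and 19.9%). There were 0 and 0 between single knockouts (5.23% and 5.77%) and 0 and 8 between backgrounds (3.82% and 3.48%). An alternative chosen after seeing the data left out the library farthest from its group mates in each group, which lowers the spread by construction; of the results it enters only the counts of calls kept under all alternatives. It gave 13 higher and 3 lower with a median of 0.0772 in Ep300 KO (13.7% and 12.9% of all genes tested). In Crebbp KO it gave 8 higher and 1 lower (5.29% and 6.1%), and in double KO against Ep300 KO 2 higher (21.9%). In Ep300 KO against Crebbp KO it gave 10 higher (16.1%) and 15 lower (16.3%) with a median of -0.0639. Between backgrounds it gave 1 higher (11%) and 35 lower (12.8%) with a median of -0.30. Under it the change in double KO against control was -0.30 for Ndc80, -0.21 for Hmmr and 0.14 for Kif23, each still called. Some genes not called with all 12 libraries turned sign under it and were called. These were Birc5 (0.18), Nuf2 (0.17) and Foxm1 (-0.16) in Ep300 KO, and Mki67 (-0.17) in double KO against Crebbp KO. In Ep300 KO against Crebbp KO they were Mad2l1 (0.24), Spc25 (0.19) and Cenpe (-0.14). The cause of these differences was not tested.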
